A study of Xenopus laevis with 46 samples.

Results

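The genes described here encode the keratins, claudins, cadherins and tight junction proteins of the frog *Xenopus laevis*, taken by symbol (krt, cldn or cdh followed by a number, together with epcam, ocln and the tight junction scaffold genes of the tjp family) in their L and S copies. *X. laevis* is an allotetraploid, and L and S mark the copies of a gene on its paired subgenomes. The rule found 166 genes among 49233 gene names. RNA was captured from the animal pole (AP) and the vegetal pole (VP) region of wild-type blastulae. Every embryo of both regions had been injected at the 1-cell stage with 5-ethynyl uridine (EU), an analog of uridine that cells use when they make RNA and that can be coupled to biotin, so that labelled RNA is caught on streptavidin. Experiment 1 held 30 libraries, 3 clutches for each region at 5, 6, 7, 8 and 9 hours post fertilisation (hpf). Experiment 2 followed 1 clutch from 6 to 9 hpf in 16 libraries, each region and time in 2 technical replicates, and entered only 1 alternative fit, as a further clutch. No untreated or uninjected library was analysed here, so how much of a value is newly made RNA and how much is RNA carried through the capture was not tested.

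Cells of the blastula adhere through cadherins, which bind each other across the gap between cells and are tied to actin by catenins. Claudins and occludin form the tight junctions that seal an epithelium, and scaffold proteins such as ZO-1 and ZO-3, encoded by tjp1 and tjp3, hold them in place. Keratins are the intermediate filaments of epithelia and assemble from a type I and a type II partner. In *Xenopus* the egg supplies the simple keratins and C-cadherin (cdh3), while E-cadherin (cdh1) and the epidermal keratins are made by the embryo as the animal cap becomes ectoderm.

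Values are the authors' normalized read counts, rounded to whole numbers, and are called values below. Library totals of these values were 1783721 to 3063366 in experiment 1 and 1901519 to 3273514 in experiment 2. Between 4137 and 18199 genes were above 0 in a library of experiment 1, with a median of 12600, so a 0 is common for any gene and marks no absence. What 1 read was worth differed between libraries: low values began at 1 in 24 of the 30 libraries of experiment 1, at 2 or 3 in 5, and at 12 in the second AP library at 8 hpf. The second VP library at 8 hpf had the fewest genes above 0 in experiment 1. The 2 VP libraries at 7 hpf of experiment 2 had 7306 and 4364 genes above 0, beside a median of 17800 in that experiment. They held 12 and 11 of the 40 members that were later tested above 0. The region labels were read against marker lists: the summed values of 16 vegetal marker genes were 1014 to 3369 in the AP and 15051 to 37060 in the VP libraries at 9 hpf, and 6 of the 16 were at 0 in all 3 AP libraries. The summed values of 24 ectoderm genes were 9908 to 40664 in AP and 7640 to 9573 in VP at 9 hpf, and those of 10 mesoderm genes were 172 to 2308 in AP and 7728 to 19659 in VP. What these mixtures add to the differences below was not tested. In tissue pieces, fewer cells of a type and less RNA per cell cannot be told apart.

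Most members of these families were captured too rarely to be tested. Of the 166 genes, 67 were at 0 in all 46 libraries and 90 were at 0 in the 30 of experiment 1. A further 59 were above 0 in some library but missed the filter for testing, which asked for 3 or more libraries of experiment 1 with 10 or more, and 40 passed it. Among 44 type I keratins 25 were at 0 throughout and 6 were tested, and among 30 type II keratins 19 were at 0 throughout and 5 were tested. Of 41 claudins 17 were at 0 throughout and 12 were tested. The 6 classical cadherins (cdh1, cdh2 and cdh3) gave 4 tested genes, and the 33 other cadherins gave 3. All 10 genes of the tight junction scaffold, occludin and epcam were tested. Of the 6 classical cadherins 0 were at 0 throughout, and of the 33 other cadherins 5 were, so most cadherins were above 0 in some library without passing the filter.

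**Figure D1:**
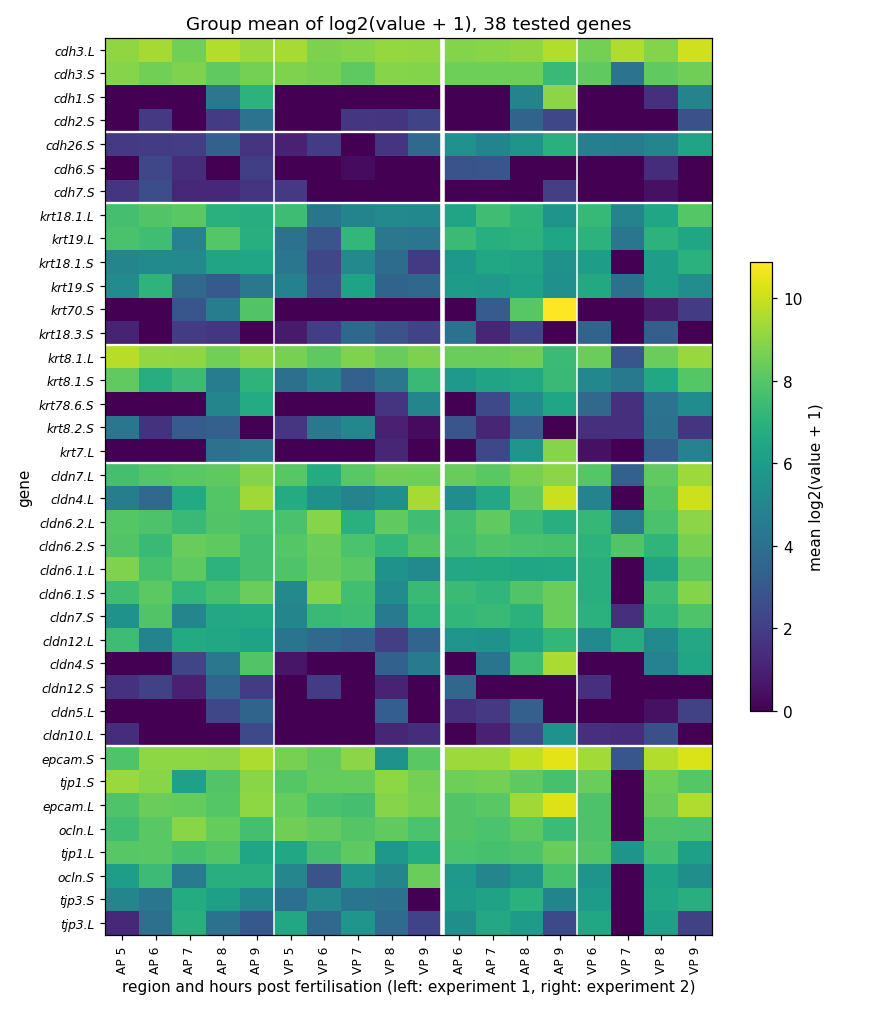
Group means of log2(value + 1) for 38 of the 40 tested genes (rows, ordered by family) in each region and time (columns; experiment 1 on the left of the thick line, experiment 2 on the right), with colour for the mean. Rows such as cdh3.L and krt8.1.L were filled at every time in experiment 1, while krt70.S and cdh1.S were filled only in AP columns from 7 or 8 hpf on in that experiment.

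A core set of adhesion and simple-epithelium genes was captured from 5 hpf on in both regions. Of the 40 tested genes, 10 were above 0 in all 30 libraries of experiment 1 and 11 in at least 29. They were both copies of cdh3, epcam, tjp1 and cldn6.2, the L copies of krt8.1, ocln and cldn7, and no other member. For cdh3.L, the values over the 30 libraries ran from 123 to 1128 with a median of 608, and for cdh3.S from 143 to 895 with a median of 418. krt8.1.L, which encodes a simple-epithelium type II keratin, ran from 150 to 1172 with a median of 454. epcam.S, an epithelial adhesion gene, ran from 0 to 799 with a median of 452, and its only 0 was in the second VP library at 8 hpf. tjp1.S, a ZO-1 gene, ran from 2 to 771 with a median of 398. ocln.L, an occludin gene, ran from 60 to 850 with a median of 242. Each of the 6 was thus captured in both regions and at every time.

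None of these 11 genes changed by limma's moderated test with Benjamini-Hochberg adjustment over all 19896 genes tested, at an adjusted p under 0.05. Their log2 fold changes in AP at 9 against 5 hpf lay between -1.65 and 1.66, with a lowest adjusted p of 0.785 and a lowest unadjusted p of 0.181. For VP against AP at 9 hpf they lay between -1.43 and 0.31, with a lowest adjusted p of 0.901 and a lowest unadjusted p of 0.247. Intervals were wide: the change of cdh3.L in AP was 0.17 ± 1.01 (SE, n = 3 libraries per group), with a 95% interval of -1.81 to 2.15, so that a change of several fold either way lies inside it. epcam.S was at 357, 208 and 175 in the AP libraries at 5 hpf and at 721, 786 and 724 at 9 hpf, in the order of replicates 1, 2 and 3. Its AP libraries at 9 hpf all lay above those at 5 hpf and above the VP values at 9 hpf of 218, 358 and 265. The log2 change over time was 1.66 ± 1.24 and did not pass (adjusted p = 0.785 in limma), nor did the region difference of -1.43 ± 1.24 (adjusted p = 0.901). In experiment 2 the 2 technical replicates of epcam.S at 9 hpf were 1503 and 1283 in AP and 1169 and 1288 in VP, so the regions overlapped there.

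**Figure D2:**
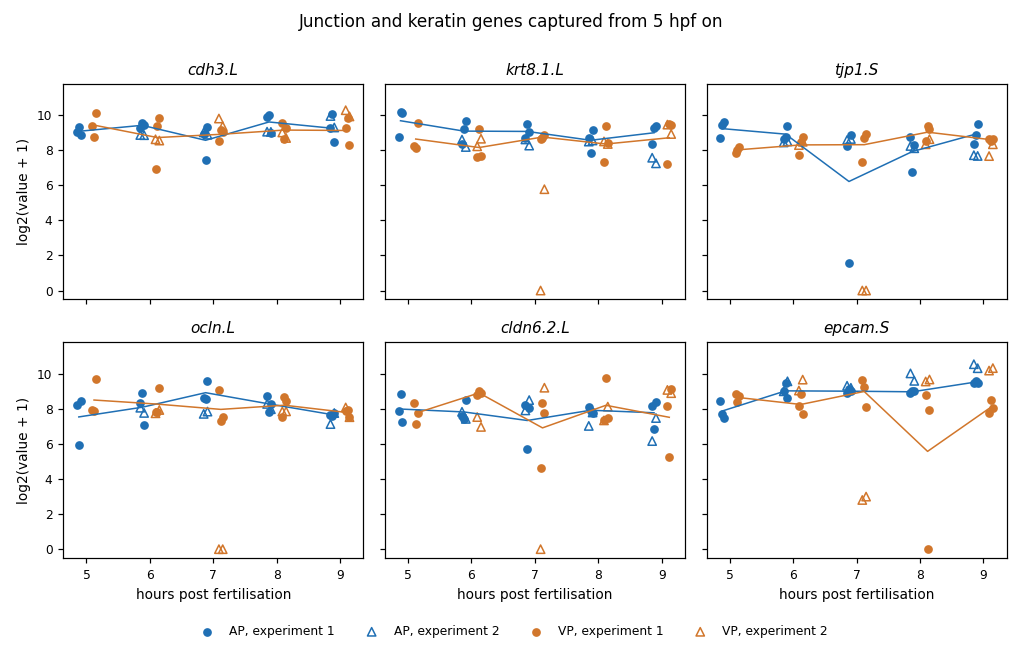
log2(value + 1) against hours post fertilisation for 6 genes captured from 5 hpf on; filled circles are single libraries of experiment 1 with lines through their means, and open triangles are technical replicates of experiment 2. AP (blue) and VP (orange) libraries overlap at most times, and the 2 VP libraries of experiment 2 at 7 hpf lie at or near 0 for tjp1.S and ocln.L.

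A second set of genes was at 0 early and appeared in AP by 8 to 9 hpf. In AP at 9 against 5 hpf, 3 of the 40 tested genes rose (limma, adjusted p under 0.05): krt70.S, cdh1.S and cldn4.S. Over all genes tested 1.72% were called higher in this comparison. With the 2 late times set against the 2 early ones (8 and 9 against 5 and 6 hpf), 5 of the 40 rose, the same 3 with krt78.6.S and krt7.L, beside 2.78% of all genes tested. None fell in either comparison, where the count of members at an unadjusted p under 0.05 in either direction was 8 for 9 against 5 hpf and 7 for the late against the early times, beside 10.3% and 10.1% of all genes tested. Calls in either direction made up 1.72% and 2.8% of all genes. The median log2 change over the 40 genes in AP at 9 against 5 hpf was 0.26, beside 0.41 over all genes tested. No fold change over time is given for these 5 genes, because the early groups were listed at 0. Members were chosen with earlier results known, and krt70.S and cdh1.S passed the filter only through AP libraries from 7 hpf on. The other called genes, cldn4.S, krt7.L and krt78.6.S, also passed it only through libraries from 7 hpf on. The counts are therefore no independent support for a rise of these families.

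krt70.S, an embryonic epidermal type I keratin gene, was at 0 in the 6 AP libraries at 5 and 6 hpf. At 7 hpf it was at 15, 0 and 26, at 8 hpf at 0, 325 and 45, and at 9 hpf at 52, 756 and 364. Every AP library at 9 hpf was thus above every AP library at 5 and 6 hpf, and replicate 1 was the lowest of the 3 at 9 hpf. limma gave an adjusted p of 0.00925 for 9 against 5 hpf and of 0.000867 for the late against the early times. All 15 VP libraries of experiment 1 were at 0. In the clutch of experiment 2 the AP technical replicates were at 0 and 0, then 25 and 2, then 265 and 264, and then 2039 and 1735 at 6, 7, 8 and 9 hpf. The VP replicates of that clutch were at 0 and 0, 0 and 0, 0 and 2, and 14 and 0.

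cdh1.S encodes E-cadherin, the cadherin of epithelia. It was at 0 in the 9 AP libraries at 5, 6 and 7 hpf, at 0, 170 and 51 at 8 hpf, and at 81, 321 and 87 at 9 hpf. The 3 AP libraries at 9 hpf stood above all the earlier ones but the second library at 8 hpf, where 1 read is worth about 12 and 170 is therefore about 14 reads. The adjusted p was 0.00794 for 9 against 5 hpf and 0.000466 for the late against the early times. Every VP library of experiment 1 was at 0. The AP replicates of experiment 2 were at 0 and 0 at 6 and at 7 hpf, at 31 and 27 at 8 hpf, and at 606 and 421 at 9 hpf, and the VP replicates at 9 hpf were at 35 and 23.

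cldn4.S encodes a claudin of the tight junction. It was at 0 in all AP libraries at 5 and 6 hpf, at 0, 115 and 0 at 7 hpf, at 0, 120 and 70 at 8 hpf, and at 69, 583 and 349 at 9 hpf. The adjusted p was 0.03 for 9 against 5 hpf and 0.00815 for the late against the early times. VP libraries also held it late, at 15, 0 and 72 at 8 hpf and at 70, 0 and 138 at 9 hpf, so the AP and VP ranges overlapped at 9 hpf. The AP replicates of experiment 2 were at 212 and 150 at 8 hpf and at 691 and 757 at 9 hpf, and the VP replicates at 9 hpf at 64 and 114.

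The type II keratin genes krt7.L and krt78.6.S were at 0 in all AP libraries of experiment 1 from 5 to 7 hpf. krt7.L was at 0, 242 and 19 at 8 hpf and at 0, 168 and 51 at 9 hpf, so that replicate 1 was at 0 at both late times. Its adjusted p was 0.0105 for the late against the early times and 0.144 for 9 against 5 hpf. krt78.6.S was at 63, 157 and 2 at 8 hpf and at 89, 44 and 262 at 9 hpf, with an adjusted p of 0.00529 for the late against the early times and 0.0539 for 9 against 5 hpf. In VP, krt78.6.S was at 31, 0 and 0 at 8 hpf and at 5, 107 and 45 at 9 hpf. At 9 hpf the clutch of experiment 2 gave krt7.L values of 458 and 492 in AP and 53 and 14 in VP, and krt78.6.S values of 67 and 105 in AP and 51 and 28 in VP.

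cldn4.L, the other copy of cldn4, was captured earlier and in both regions. At 5 hpf its AP values were 75, 188 and 0 and its VP values 112, 66 and 140. At 9 hpf the AP libraries held 196, 1551 and 904 and the VP libraries 744, 583 and 765. In both regions all 3 libraries at 9 hpf lay above all 3 at 5 hpf. The log2 change was 4.74 ± 1.98 in AP (adjusted p = 0.278) and 2.76 ± 1.98 in VP (adjusted p = 0.742), and 4.50 ± 1.40 for the late against the early AP times (adjusted p = 0.0503), none past the threshold in limma. When only the groups compared entered the fit, cldn4.L was called in AP at 9 against 5 hpf, in AP at the late against the early times (adjusted p = 0.00818) and in VP at 9 against 5 hpf (adjusted p = 0.0384). Over 13 alternatives it was called in 7 for the late against the early AP times, with adjusted p of 0.00692 to 0.921, and in 1 for VP at 9 against 5 hpf, with adjusted p of 0.0384 to 0.963. The 2 AP replicates of experiment 2 at 9 hpf were at 1247 and 829 and the 2 VP replicates at 1279 and 889.

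**Figure D3:**
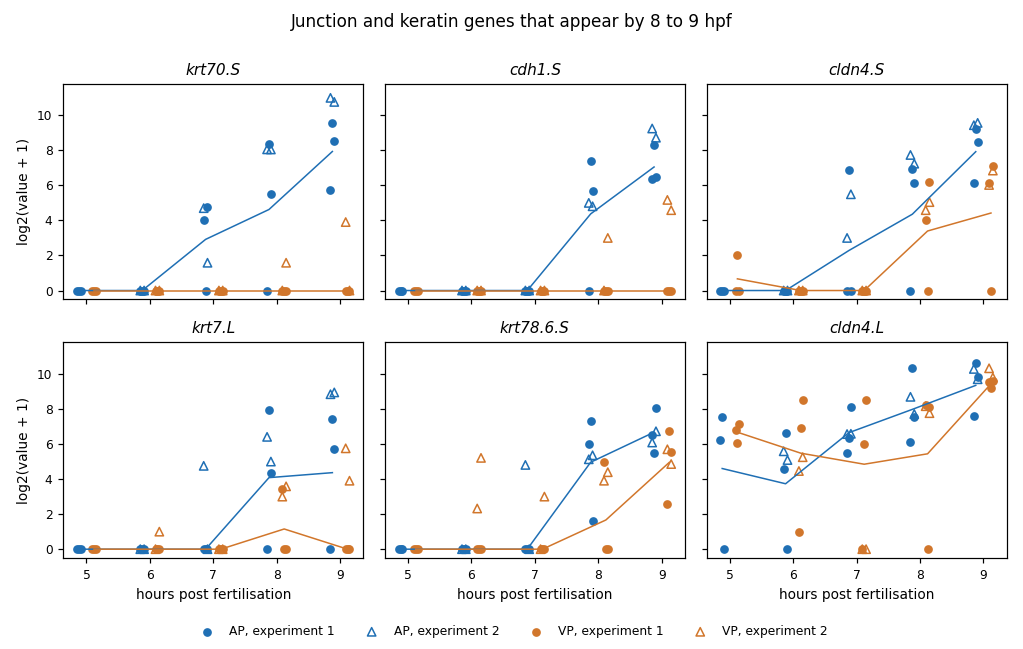
log2(value + 1) against hours post fertilisation for the 5 genes that rose in AP and for cldn4.L; filled circles are libraries of experiment 1 with lines through their means, and open triangles are technical replicates of experiment 2. krt70.S and cdh1.S leave 0 in AP (blue) at 7 and 8 hpf and stay at 0 in the VP libraries (orange) of experiment 1, and cldn4.L climbs in both regions.

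With 2 libraries in each group most of these calls did not pass. Leaving out any 1 of the 3 replicate numbers left no member called in AP at 9 against 5 hpf, with adjusted p of 0.102 to 0.175 for cdh1.S and 0.0771 to 0.196 for krt70.S. For the late against the early times, 4 members were called without replicate 1, 0 without replicate 2 and 2 without replicate 3, and without replicate 2 the adjusted p was 0.116 for cdh1.S and 0.186 for krt70.S. For both genes all 3 AP libraries at 5 hpf were at 0 and all 3 at 9 hpf above 0. Leaving out libraries could thus not make these groups overlap. How much of the loss comes from the smaller groups was not tested.

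The single times before 9 hpf gave no call. Against 5 hpf none was called in AP at 6, 7 or 8 hpf by limma, where 0.0%, 0.0101% and 0.0653% of all genes were, and 1, 2 and 5 members had an unadjusted p under 0.05, beside 3.45%, 3.88% and 6.75% of all genes. At 8 hpf those 5 were cdh1.S, cldn4.S, krt7.L, krt70.S and krt78.6.S.

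Groups of 3 that do not overlap gave a wider view of AP at 9 against 5 hpf. All 3 libraries at 9 hpf lay above all 3 at 5 hpf for 11 of the 40 genes, beside 8.5% of all genes tested. Apart from krt70.S, cdh1.S, cldn4.S, krt78.6.S and cldn4.L, these included cdh2.S and both copies of cldn7 and epcam. Of these, krt70.S, cdh1.S, cldn4.S, krt78.6.S and cdh2.S were at 0 in AP at 5 hpf and passed the filter only through later libraries. The count of 11 is therefore no independent support for a rise of these families. cdh2.S, an N-cadherin gene, was at 0, 0 and 0 at 5 hpf and at 21, 85 and 2 at 9 hpf (adjusted p = 0.317). The reverse held for cldn12.L and cldn6.1.L, beside 4.23% of all genes. cldn6.1.L was at 336, 694 and 367 in AP at 5 hpf and at 198, 237 and 170 at 9 hpf, a log2 change of -1.14 ± 1.57 (adjusted p = 0.92).

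In VP no member of these families was called at any time against 5 hpf by limma. At 9 against 5 hpf 1.25% of all genes were called, and at 6, 7 and 8 hpf 0.0101%, 0.00503% and 0.00503%. At an unadjusted p under 0.05 there were 1, 0, 2 and 1 members at 6, 7, 8 and 9 hpf, beside 4.93%, 2.43%, 6.36% and 8.86% of all genes. For the late against the early VP times 1.38% of all genes and no member were called, with 3 members at an unadjusted p under 0.05 (cldn4.S, cldn6.1.L and krt78.6.S), beside 10.0% of all genes. At 9 hpf the 3 VP libraries lay above the 3 at 5 hpf for 4 of the 40 genes, beside 5.44% of all genes. They were cldn4.L, krt78.6.S, krt8.1.S and tjp1.S. The reverse held for none, beside 4.77%. Of the 4, krt78.6.S passed the filter only through libraries at 8 and 9 hpf, so the count is no independent support for a rise. krt8.1.S was at 61, 69 and 0 in VP at 5 hpf and at 103, 121 and 322 at 9 hpf, a log2 change of 3.29 ± 2.14 (adjusted p = 0.718). Its mean values were 43.3 and 182, and the 0 at 5 hpf enlarges the change on the log scale.

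Set side by side at 9 hpf, the regions differed in 2 of the 40 genes, krt70.S and cdh1.S, both lower in VP (limma, adjusted p = 0.014 and 0.0116). Over all genes tested 0.131% were called lower in VP and 0.377% in either direction. Members were chosen with these 2 genes already known to be higher in AP at 9 hpf. Both also passed the filter for testing only through AP libraries. The count is therefore no independent support for a region difference of these families. At an unadjusted p under 0.05 there were 5 members, beside 7.19% of all genes. Both genes were at 0 in the 3 VP libraries, and the AP values were 52, 756 and 364 for krt70.S and 81, 321 and 87 for cdh1.S. Either call was lost when any 1 replicate number was left out, with adjusted p of 0.128 to 0.209 for krt70.S and 0.11 to 0.203 for cdh1.S. Both were also lost in limma with only the groups compared in the fit (adjusted p = 0.216 for krt70.S and 0.458 for cdh1.S). With the clutch of experiment 2 added as a further clutch, the adjusted p was 0.000409 for krt70.S and 0.00211 for cdh1.S. Averaged over the 5 times, krt70.S alone was called lower in VP (adjusted p = 0.0401), beside 0.0704% of all genes called lower and 0.709% in either direction, and cdh1.S was not (adjusted p = 0.157). At an unadjusted p under 0.05 there were 7 members in that average, beside 10.1% of all genes. Fitted differences in that average had a median of -0.62 over the 40 genes, beside -0.47 over all genes tested. The 7 were all below 0, and besides krt70.S, cdh1.S and krt7.L they were krt18.1.L, krt19.L, krt8.1.S and cldn12.L. None of these 4 passed the adjustment. The log2 difference was -2.44 ± 0.97 for krt19.L, a simple-epithelium type I keratin gene (adjusted p = 0.34), -2.11 ± 0.87 for krt18.1.L (adjusted p = 0.366), -2.02 ± 0.96 for krt8.1.S (adjusted p = 0.457) and -2.99 ± 1.05 for cldn12.L (adjusted p = 0.241). That call was also lost without any 1 replicate number, with adjusted p of 0.184 to 0.459.

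The region difference did not pass for the other genes that appeared late. krt7.L was at 0, 168 and 51 in AP and at 0 in all 3 VP libraries at 9 hpf (adjusted p = 0.325). The log2 difference of VP from AP was -3.50 ± 2.20 for cldn4.S (adjusted p = 0.809), -1.72 ± 2.00 for krt78.6.S (adjusted p = 0.927) and 0.09 ± 1.98 for cldn4.L (adjusted p = 1.0). Values in the 3 VP libraries lay below those in the 3 AP libraries for 5 genes, cdh1.S, epcam.S, krt18.1.S, krt70.S and tjp3.S, beside 5.7% of all genes, and above them for ocln.S, beside 3.56%. The count of 5 holds cdh1.S and krt70.S, which passed the filter only through AP libraries, so it is no independent support either. krt18.1.S, a simple-epithelium type I keratin gene, was at 132, 62 and 80 in AP and at 44, 0 and 0 in VP (adjusted p = 0.727). tjp3.S, a ZO-3 gene, was at 82, 14 and 31 in AP and at 0 in all 3 VP libraries (adjusted p = 0.631). In the clutch of experiment 2 both stood the other way at 9 hpf, krt18.1.S at 65 and 32 in AP and 67 and 224 in VP, and tjp3.S at 26 and 32 in AP and 121 and 102 in VP. ocln.S, an occludin gene, was at 140, 133 and 77 in AP and at 343, 199 and 554 in VP at 9 hpf of experiment 1 (adjusted p = 0.943), and it too stood the other way in experiment 2, at 296 and 145 in AP and at 93 and 18 in VP. The median log2 difference over the 40 genes was -0.88, beside -0.53 over all genes tested.

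**Figure D4:**
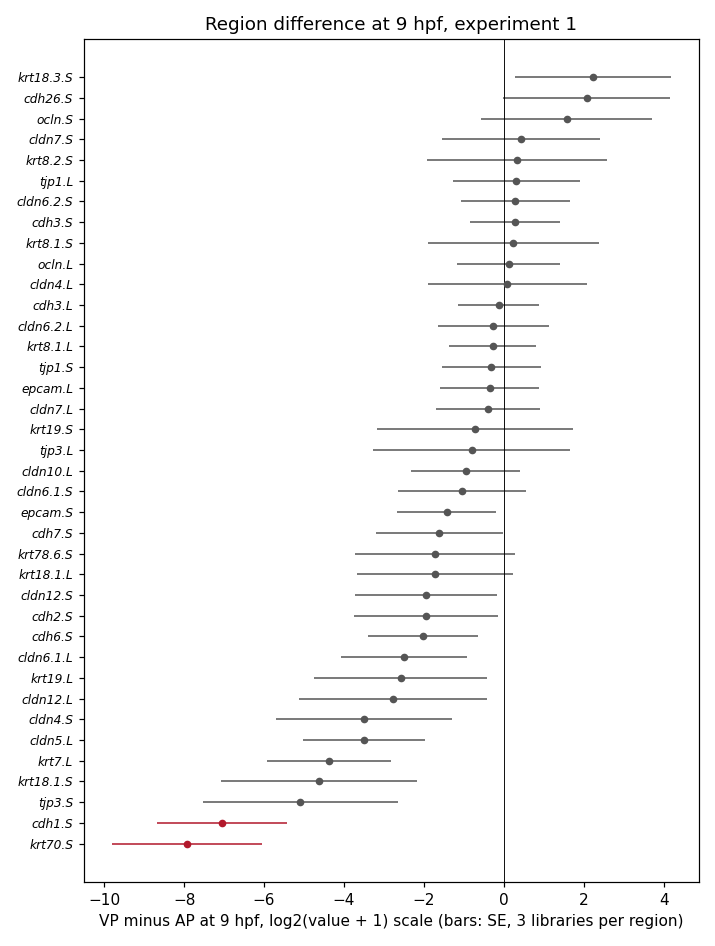
Log2 difference of VP from AP at 9 hpf on the log2(value + 1) scale for 38 of the 40 tested genes, ordered by size. Points are fitted differences, and red marks an adjusted p under 0.05. Bars are standard errors (3 libraries per region), taken from a spread estimated over all groups of experiment 1. krt70.S and cdh1.S, at 0 in all 3 VP libraries, stand at the low end, and the 11 genes above 0 in at least 29 libraries lie between -1.43 and 0.31.

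At the earlier times no member differed between the regions by limma. The share of all genes called was 0.0955%, 0.0251%, 0.0101% and 0.0% at 5, 6, 7 and 8 hpf, and 1, 2, 0 and 3 members had an unadjusted p under 0.05, beside 4.29%, 6.36%, 3.48% and 6.78% of all genes. At 8 hpf those 3 were cdh1.S, krt70.S and epcam.S, and the epcam.S value includes the 0 of the second VP library. The change from 5 to 9 hpf was not shown to differ between the regions: the interaction called 0.0% of all genes, and krt70.S and cdh1.S had the lowest adjusted p among the members, 0.809 for each, with an unadjusted p of 0.00303 and 0.00242. Of the 40 genes 3 had an unadjusted p under 0.05 in the interaction, the third being krt7.L, beside 5.24% of all genes.

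Keratins summed over all 76 genes gave no late step in experiment 1. Their total was 1225, 2663 and 2462 in AP and 940, 845 and 900 in VP at 5 hpf, and 1082, 2199 and 2022 in AP and 625, 1449 and 1059 in VP at 9 hpf. The AP totals at 5 hpf overlapped those at 9 hpf. At 5, 6, 7 and 8 hpf every AP total lay above every VP total. At 8 hpf they were 1337, 1419 and 1407 in AP and 790, 660 and 838 in VP. At 9 hpf the ranges of AP and VP overlapped. No test was run on these sums. In experiment 2 the AP total was 910 and 694 at 6 hpf and 3645 and 3125 at 9 hpf, and krt70.S alone made up 2039 and 1735 of the latter. The VP total of that clutch was 901 and 885 at 6 hpf and 1608 and 1453 at 9 hpf. At 7 hpf VP stood higher, at 1755 and 1550 beside 978 and 909 in AP. These are the 2 sparse VP libraries, with 7306 and 4364 genes above 0, and single genes weighed heavily in them. The 1550 held 863 of krt18.1.L and 619 of krt12.6.L, both at 0 in the other replicate. The 1755 held 557 of krt222.S, likewise at 0 in the other replicate. Claudins summed to 1588, 2432 and 1386 in AP at 5 hpf and to 1709, 4264 and 3016 at 9 hpf, where 1551 and 904 of the latter 2 totals were cldn4.L. In VP they summed to 1999, 1097 and 1243 at 5 hpf and to 2767, 1555 and 2523 at 9 hpf. In experiment 2 the AP claudin total went from 1286 and 1217 at 6 hpf to 4185 and 3785 at 9 hpf. The VP total went from 1081 and 862 to 4034 and 3750.

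Among epidermal keratins below the filter, krt12.4.L was captured late. It was at 0, 36 and 140 in AP at 9 hpf and at 0 in every other library of experiment 1. The AP replicates of experiment 2 were at 38 and 12 at 8 hpf and at 75 and 137 at 9 hpf, and the VP replicates at 1 and 0 and at 0 and 0. Without a filter on low values it was called higher in AP at 9 against 5 hpf and lower in VP than in AP at 9 hpf. In experiment 1 the other krt12 copies were at 0 but for krt12.4.S, which was at 26 in 1 AP library at 8 hpf. In experiment 2 krt12.6.L was at 619 in 1 VP library at 7 hpf and krt12.2.L at 51 in 1 at 9 hpf, and krt12.5.S was at 11 and 16 in AP at 9 hpf. krt12.1.L and krt12.5.L were at 0 throughout. krt7.S, the other copy of krt7, was at 188 and 89 in AP and at 2 and 51 in VP at 9 hpf in experiment 2. In experiment 1 krt7.S was above 0 in 1 library, at 38 in VP at 8 hpf. cldn6.S was at 100 and 168 in AP and at 25 and 59 in VP at 9 hpf in experiment 2. It was above 0 in 2 of the 30 libraries of experiment 1, both at 9 hpf, at 22 in AP and at 73 in VP.

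For several of the rising genes 1 copy carried nearly all of the signal. Of 69 pairs with both copies among the members, 14 had both tested, 2 only the L copy, 9 only the S copy and 44 neither. Of the 5 genes called in at least 1 comparison, 4 were S copies and 1 an L copy. cdh1.L was above 0 in 2 of 46 libraries, reaching 7, beside 12 libraries and 606 for cdh1.S. krt70.L was above 0 in 4 of 46 libraries, and krt78.6.L was at 0 in all 46. cldn4 stood apart, since cldn4.L was captured early and cldn4.S late. How reads were divided between near-identical copies, and between neighbouring keratin genes, was not tested, and no sequence was compared.

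The adjacent cadherin genes cdh1 and cdh3 differed in timing. In the RefSeq gene table of assembly Xenopus_laevis_v10.1, used for gene order alone, no protein-coding gene lies between cdh1 and cdh3 on either subgenome. cdh3.S was captured in all 30 libraries, between 143 and 895, while its neighbour cdh1.S was above 0 in 5, all AP at 8 and 9 hpf. The same table sets krt8.1 beside krt18.1 and cldn6.1 beside cldn6.2 on both subgenomes, and both members of those pairs were tested. cldn3.L, next to cldn4.L, was above 0 in 1 library, at 5. Most type II keratin genes lie on chromosomes 2L and 2S (15 and 12 genes) and most type I genes on 9_10L and 9_10S (22 and 16).

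**Figure D5:**
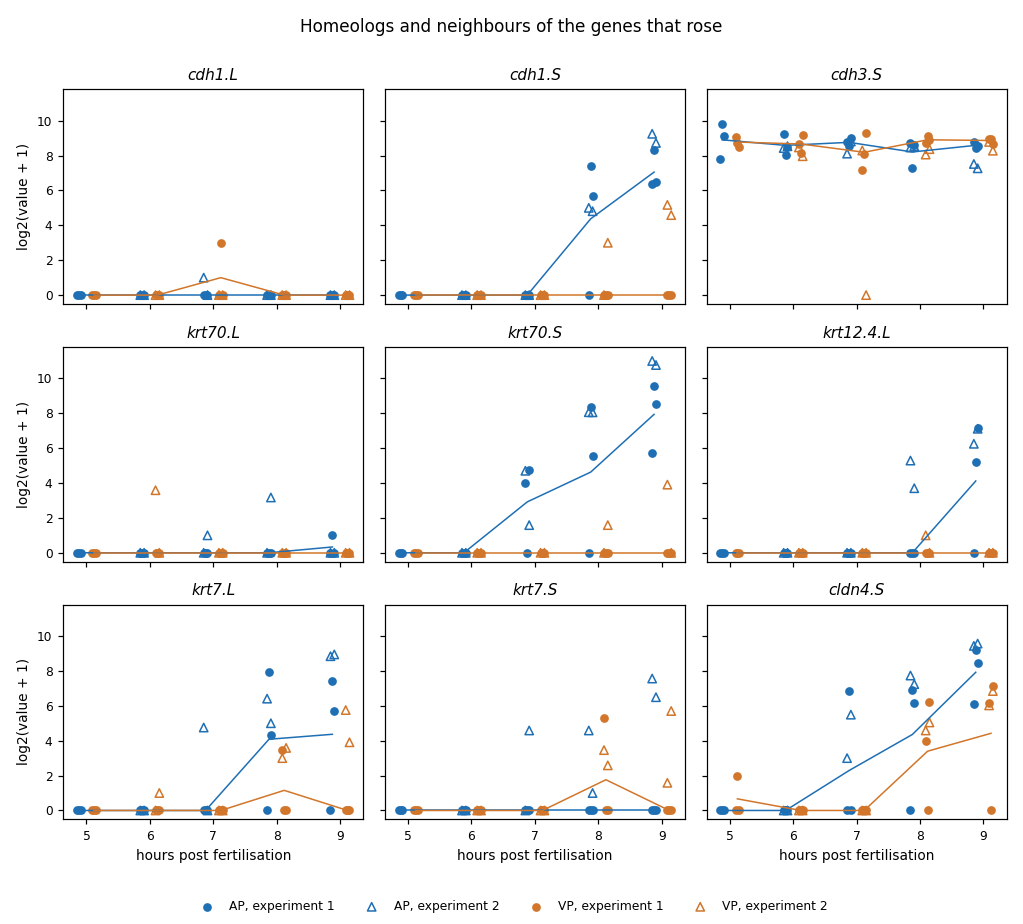
log2(value + 1) against hours post fertilisation for the L and S copies of cdh1, krt70 and krt7, with cdh3.S, the neighbour of cdh1.S, and with krt12.4.L and cldn4.S; filled circles are libraries of experiment 1 with lines through their means, and open triangles are technical replicates of experiment 2. cdh1.L and krt70.L stay near 0 where cdh1.S and krt70.S rise in AP (blue), and cdh3.S is above 0 in every library of experiment 1.

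Other genes of junctions and of the epithelial cytoskeleton were read from a separate list of 116 measured genes, of which 97 were tested. At 9 hpf 3 of the 97 were higher in VP, none lower: pcdh8.2.L and pcdh8.2.S, which encode a protocadherin, and magi1.S, which encodes a junction scaffold protein, beside 0.377% of all genes called in either direction. pcdh8.2.S was at 1740, 467 and 0 in VP and at 0 in all 3 AP libraries at 9 hpf (adjusted p = 0.0134), and pcdh8.2.L was at 901, 197 and 0 in VP (adjusted p = 0.0257). magi1.S was at 440, 268 and 951 in VP and at 258, 0 and 4 in AP, a log2 difference of 5.47 ± 1.42 (adjusted p = 0.0415), and was also called over all times together (2.80 ± 0.63, adjusted p = 0.00329). In AP at 9 against 5 hpf 2 of the 97 rose, beside 1.72% of all genes, a share near that background. They were both copies of grhl3, which encodes a transcription factor of epidermal differentiation. grhl3.L was at 0 in AP at 5 hpf and at 838, 3434 and 2016 at 9 hpf (adjusted p = 0.00636). It was at 994, 328 and 588 in VP at 9 hpf, where it also rose from 0 (adjusted p = 0.0215). In VP at 9 against 5 hpf 4 of the 97 rose, beside 1.25% of all genes called in either direction: grhl3.L, both copies of pcdh8.2, and snai1.S, which encodes a repressor of E-cadherin in mammals. snai1.S was at 3871, 1769 and 2106 in VP at 9 hpf (adjusted p = 0.00288) and at 39, 296 and 71 in AP. It was also called higher in AP at 8 and 9 against 5 and 6 hpf (adjusted p = 0.044), where 5 of the 97 rose beside 2.78% of all genes. In VP at 8 and 9 against 5 and 6 hpf 6 of the 97 rose, beside 1.38% of all genes called in either direction. They were both copies of grhl3 and of pcdh8.2, with pcdh7.L and snai1.S. The adjusted p there was 0.000546 for snai1.S and 0.0205 for grhl3.S. Both copies of pcdh8.2 passed the filter for testing only through VP libraries at 8 and 9 hpf. Both copies of grhl3 and pcdh7.L passed it only through libraries from 7 hpf on. The counts from this list are therefore no independent support for a rise or a region difference of junction genes.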

How the data were processed

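RNA carrying EU from AP and VP regions was sequenced in 46 libraries. Per the submitters' processing notes, Salmon 0.12.0 and DESeq2 were used. The genome build and annotation were not given in the sources used here. Deposited by the authors was 1 table of normalized read counts rounded to whole numbers, a score rather than raw counts, so no count model was used. Median-ratio factors recomputed from it over 1108 genes lay between 0.988 and 1.179. The 50489 entries were summed by name to 49233 genes (1256 into a namesake).

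A gene entered the test if 3 or more libraries of experiment 1 held 10 or more, which 19896 genes did. limma 3.58.1 (R 4.3.3) was fitted to log2(value + 1) with 1 coefficient per region and time, two-sided moderated tests (trend and robust options on) and Benjamini-Hochberg adjustment over all tested genes within each of 17 contrasts. Genes with an adjusted p under 0.05 were called. Fold changes are on the log2(value + 1) scale, which understates those of low genes, and are given with SE and n = 3. None is given against a group listed at 0.

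Replicate numbers are not stated to be the same clutch across groups. Correlations of deviations between AP and VP libraries of equal number were -0.024 to 0.103 with a median of 0.028. Those of unequal number were -0.113 to 0.078 with a median of -0.013. Deviations from means of only 3 libraries cannot settle pairing, and the main fit did not treat numbers as pairs. Named genes were those called, their other copies, a set of main family members, the highest of each family and those with the smallest p at 9 hpf. cldn3.L, cldn7.S and cldn12.L fell outside this rule and were named once their values were known. The members, lists and tests were chosen with earlier results of these data known. Alternatives are described in the closing section. Of the 40 tested genes, 2 enter the counts and medians but are not reported here. Figures were drawn with matplotlib 3.10.9.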

Additional observations from a re-analysis of the deposited data

How the results depend on the processing

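For VP against AP at 9 hpf, 2 members were called, and 1 (krt70.S) with a minimum of 10 in 6 libraries, 3 without a filter (krt12.4.L added), 0 with only the groups compared in the fit, and 0 to 0 when 1 replicate number was left out. In AP at 9 against 5 hpf 3 were called, 5 without a filter (krt12.4.L and krt78.6.S added), 1 (cldn4.L) with only the groups compared, and 0 to 0 with a replicate number left out. In AP at 8 and 9 against 5 and 6 hpf 5 were called, 3 with the minimum in 6 libraries, and 0 to 4 with a replicate number left out. In the region comparison averaged over all times 1 was called, and 0 to 0 with a replicate number left out. VP at 9 against 5 hpf had 0 and gave 1 (cldn4.L) with only the groups compared. With the replicate block these counts were 2, 4, 6, 1 and 0, the added calls being krt78.6.S and cldn4.L. The other alternatives (a larger added constant, other scalings, library weights, the second VP library at 8 hpf left out, L and S copies summed, the clutch of experiment 2 added) kept each count within 1.5 times the reported one. An equal count could hold other genes. With copies summed, the 3 called in AP at 9 against 5 hpf were cdh1, krt70 and krt78.6, without cldn4. With only the groups compared, the 5 called in AP at the late against the early times held cldn4.L in place of krt7.L. Of 15 single-gene results under 14 alternatives (190 values), 33 lost a call, 13 gained one and 0 changed direction. cdh1.S and krt7.L could not be tested with the minimum in 6 libraries. The median log2 change of all genes in AP at 9 against 5 hpf, 0.41, was 0.26 with equal library totals, 0.16 with the larger constant, 0.04 without replicate 2, 0.2 without replicate 3 and 0.0 without a filter. That of VP against AP at 9 hpf, -0.53, was -0.24 without replicate 1 and -0.06 without a filter. The causes were not tested. Depth limits every 0, and in the second AP library at 8 hpf the filter minimum of 10 is under 1 read.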

Other observations

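The 2 VP libraries at 7 hpf of experiment 2, technical replicates of 1 clutch, disagreed for single genes of these families. krt18.1.L was at 0 in the first and 863 in the second, and cldn6.2.S at 53 and 1067. cdh26.S was at 546 and 0, krt222.S at 557 and 0, and krt12.6.L at 0 and 619, where every other library held krt12.6.L at 0. Low values began at 6 and at 7 in these libraries, which held 24 and 13 of the 166 genes above 0. They enter no test of the report other than the fit with that clutch added.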
